A study of Nothobranchius furzeri with 68 samples.

Results

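mfsd2a encodes a membrane transporter of the major facilitator family that carries lysophosphatidylcholine, a phospholipid with a single fatty acid chain, into cells together with sodium. In mammals it is best known from the blood vessels of the brain, where it brings in lysophosphatidylcholine that carries docosahexaenoic acid. In mouse liver its messenger RNA is known to rise with fasting, a response that depends on the nuclear receptor PPAR alpha, a sensor of fatty acids. It was examined here in the liver and muscle of Nothobranchius furzeri, the African turquoise killifish, whose life in seasonal pools lasts only months, as 1 gene among the 25099 genes of the larger count table.

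The gene was chosen by its measured genotype difference in the livers of young fed males, so every value that involves those livers is given as a description, without a test. The other groups did not enter that comparison, although earlier results of them were known when the gene was chosen. The column of the count tables that bears the symbol mfsd2a was used. RefSeq names a pair of killifish copies, mfsd2aa and mfsd2ab, and the tables hold mfsd2aa under its own identifier. The symbol could not be matched to mfsd2ab by identifier, and how reads shared by the copies were counted is not given in the sources used here, so its separation from them is uncertain.

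The fish were heterozygous (Het) or wild type (WT) for aprt, the gene of adenine phosphoribosyltransferase, which makes AMP from adenine. They were 15 weeks old (old) or 6.5 weeks old (young), and had either gone without food for 24 h (fasted) or been fed ad libitum (fed). RNA was measured in 41 livers of 12 groups, namely fasted females and males of each age and genotype and fed males of each age and genotype, and in the muscle of the 27 fasted fish, in 8 groups. Groups held 3 or 4 fish. The strain, the aprt allele and the number of founder lines are not given in the sources used here. Each library carries the number of 1 fish, no label speaks of pooled animals, and the series' design text states that liver and muscle came from the same animals.

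Total counts ran from 19949104 to 31600126 per liver and from 24144462 to 31331150 per muscle. All 12 hepatocyte markers exceeded a median of 1 CPM (counts per 1000000 counts, scaled with TMM library sizes) in liver, where their sum was 53700 to 208000 CPM, against 2.42 to 3258 CPM in muscle. The muscle median was 11.1 CPM, and the highest muscle sum was that of fish 25, an old Het fasted male. Levels of aprt were lower in Het than in WT on average in all 10 pairs of groups, with log2 fold changes of -1.21 to -0.40, and 2 of the 10 differences were called (edgeR adjusted p under 0.05). The genotypes overlapped in 4 of the 10. In liver, fish 21, an old Het fasted female, had 11.9 CPM of aprt, within the 10.5 to 12.7 CPM of its WT group, and in muscle it had 10.1 CPM, within 8.51 to 11.8 CPM. In young fed males, the library labelled WT from fish 47 had 13.3 CPM, within the 12.5 to 17.3 CPM of the Het livers. Het fish 52, 54 and 55 (14.1, 17.3 and 14.0 CPM) lay within the WT range of 13.3 to 24.4 CPM. In muscle of young females, Het fish 35, 36 and 37 (6.30, 6.08 and 8.81 CPM) lay within the WT range. WT fish 28 and 29 (7.94 and 5.03 CPM) lay within the Het range there. In liver of young females the genotypes did not overlap, with 14.7 CPM in WT fish 29 and 6.02 CPM in Het fish 37. Beside the mfsd2a comparisons within a tissue, values without fish 21, 47, 37 and 29 are also given. Values without the other overlapping fish are not given throughout.

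The gene was detected in every library. It had 213 to 7825 reads per liver and 129 to 1126 reads per muscle. In liver the levels covered 5.43 to 522 CPM with a median of 123 CPM, and in muscle 6.15 to 37.5 CPM with a median of 17.8 CPM. In bulk tissue, fewer cells that express a gene and less of its RNA per cell cannot be told apart.

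In young fed males, mfsd2a was high in every Het liver and low in every WT liver. It had 121, 219, 174 and 196 CPM in the Het livers, against 8.04, 10.5 and 14.8 CPM in the WT livers. The lowest Het liver stood far above the highest WT liver. Het livers averaged 177 ± 41.8 CPM (SD, n = 4), against 11.1 ± 3.42 CPM for WT (SD, n = 3), a 15.9-fold difference (log2 4.00 ± 0.62, SE), and the log2 value was 4.26 without fish 47. These are the values by which the gene was chosen, in a comparison where 2.78% of the 17406 genes tested were called higher in Het. The sum of 12 hepatocyte markers, all with reads, moved with them, at 175600 to 208000 CPM in Het and 145400 to 156200 CPM in WT. The sum of 12 skeletal muscle markers ran the other way, at 3.7 to 8.2 CPM in Het and 9.5 to 22.05 CPM in WT. Of these, 1 marker had no reads in each group. The part of these markers was not tested.

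**Figure D1:**
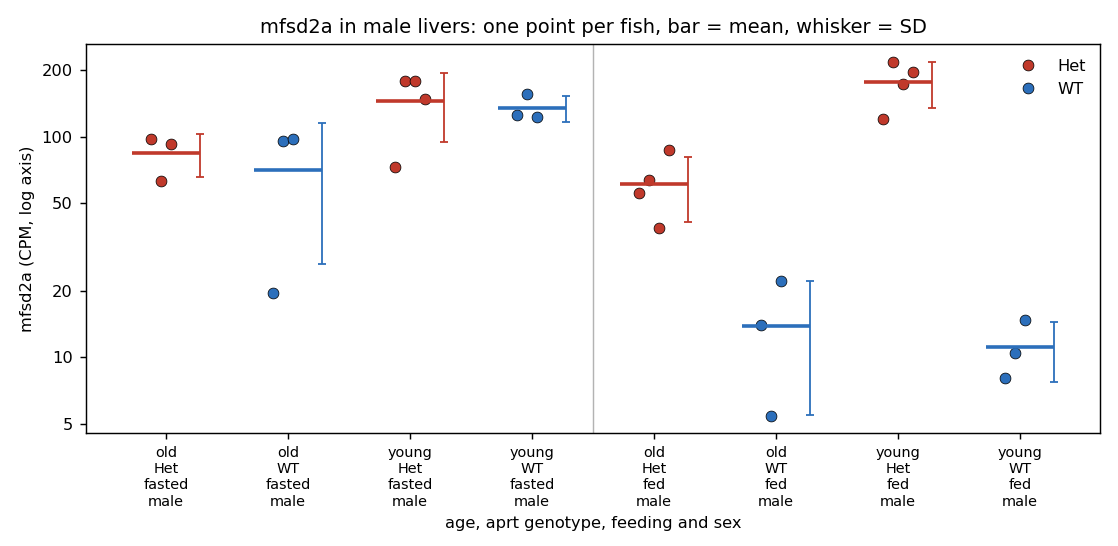
CPM of mfsd2a (log axis) in each male liver by age, aprt genotype and feeding, with group means (bars) and SD (whiskers). The 8 fed Het livers lie between 38.8 and 219 CPM, and the 6 fed WT livers between 5.43 and 22.2 CPM.

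Old fed males, whose livers are not in that comparison, also had more mfsd2a in Het livers than in WT livers. The Het livers had 55.4, 63.5, 38.8 and 87.2 CPM, against 14.0, 5.43 and 22.2 CPM in the WT livers. The groups did not overlap. Het livers averaged 61.2 ± 20.1 CPM (SD, n = 4), against 13.9 ± 8.40 CPM for WT (SD, n = 3), a 4.42-fold difference (log2 2.14 ± 0.56, SE, edgeR adjusted p = 0.0181). In this comparison 3.45% of genes were called higher in Het. The call was lost without WT fish 4 (log2 2.15, edgeR adjusted p = 0.0521) and without WT fish 5 (1.76, edgeR adjusted p = 0.160).

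Cell type markers varied between these fed old livers. The sum of the 12 hepatocyte markers, all with reads, was 163400 to 207400 CPM in Het and 130200 to 159800 CPM in WT, without overlap. Summed over 14 leukocyte markers, all of which had reads in both groups, the level was 17.4 to 390 CPM in Het and 13.1 to 416 CPM in WT. Fish 13 had the highest leukocyte sum and the lowest mfsd2a of the Het group. Summed over 12 skeletal muscle markers, it was 5.69 to 15.7 CPM in Het, where 1 marker had no reads, and 3.52 to 292 CPM in WT. The highest of those sums belonged to WT fish 5, which also had the lowest mfsd2a level of all livers. The part of these markers in the genotype difference was not tested.

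Fasted WT males had more mfsd2a than fed WT males. Among old WT males, mfsd2a had 19.6, 96.1 and 97.3 CPM in the fasted livers, against 14.0, 5.43 and 22.2 CPM in the fed livers. One fasted liver, that of fish 18, lay within the fed range and the other 2 lay above it. The means were 71.0 ± 44.5 CPM in fasted and 13.9 ± 8.40 CPM in fed livers (SD, n = 3 each), a 5.12-fold difference (log2 2.35 ± 0.59, SE, edgeR adjusted p = 0.00312). In this comparison 13.3% of genes were called higher in fasted livers. It shares its fed livers with the genotype comparison of old fed males. Fitted on these 2 groups alone, the log2 difference was 2.33 and was not called (edgeR adjusted p = 0.10).

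The liver of fish 18 stood apart from the others of its group. Its leukocyte sum of 613 CPM was the highest of all 41 livers, in a group whose sums were 36.0 to 613 CPM, against 13.1 to 416 CPM in the fed group, with reads for all 14 markers in both. Without it, the fasting difference of old WT males was 2.80 (edgeR adjusted p = 0.000379). The part of leukocytes in its low mfsd2a level was not tested.

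In old Het males, mfsd2a had 98.0, 63.3 and 92.9 CPM in fasted livers, against 55.4, 63.5, 38.8 and 87.2 CPM in fed livers. These ranges overlapped. The means were 84.7 ± 18.7 CPM in fasted (SD, n = 3) and 61.2 ± 20.1 CPM in fed livers (SD, n = 4), and the log2 difference of 0.47 ± 0.52 (SE) was not called (edgeR adjusted p = 0.544), where 15.4% of genes were called higher. The endothelial and hepatocyte marker sums of these groups did not overlap. The 14 endothelial markers summed to 423 to 567 CPM in fasted and 165 to 210 CPM in fed livers, and the 12 hepatocyte markers to 120500 to 134700 CPM in fasted and 163400 to 207400 CPM in fed livers. In old WT males both sums overlapped, at 180 to 254 CPM in fasted and 123 to 301 CPM in fed livers for the endothelial markers and at 145300 to 187400 CPM in fasted and 130200 to 159800 CPM in fed livers for the hepatocyte markers. All of these markers had reads in each group, and their part in the fasting responses and in the difference between them was not tested.

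The difference between those 2 fasting responses, Het minus WT in old males, was -1.89 on the log2 scale (SE 0.78, unadjusted p = 0.0210) and was not called (edgeR adjusted p = 0.179). In this contrast 0.684% of genes were called lower. Without fish 18 it was -2.33 and was called (edgeR adjusted p = 0.0476). Het fish 26 had the highest leukocyte sum of the old Het fasted males, 518 CPM. Without fish 26 the difference was -1.71 and was not called (edgeR adjusted p = 0.262). Of 13 fits that each left out 1 library, 1 was called, the one without fish 18. A fasting response past the threshold in WT and not in Het is therefore not shown to differ between the genotypes with all fish included.

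The young males are given as a description, since they share the fed livers by which the gene was chosen. Young WT livers had 126, 156 and 123 CPM when fasted, against 8.04, 10.5 and 14.8 CPM when fed, a log2 difference of 3.60 ± 0.62 (SE). Without fish 47 it was 3.86. Young Het livers had 73.1, 180, 178 and 149 CPM when fasted, against 121, 219, 174 and 196 CPM when fed, a log2 difference of -0.29 ± 0.48 (SE). The WT ranges were far apart and the Het ranges overlapped. All of the fasted male livers but that of fish 18 were above every fed WT liver. Between the ages, fed WT males had a log2 difference of 0.32 ± 0.57 (SE, old over young, 0.58 without fish 47) and fed Het males one of -1.53 ± 0.49 (SE).

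After 24 h of fasting, no genotype difference of mfsd2a in liver was called. In young fasted males Het livers averaged 145 ± 49.9 CPM (SD, n = 4), against 135 ± 18.2 CPM for WT (SD, n = 3), a log2 difference of 0.10 ± 0.52 (SE, edgeR adjusted p = 1). In old fasted males the difference was 0.26 ± 0.56 (SE, edgeR adjusted p = 0.871). It was -0.19 without fish 18 and 0.43 without Het fish 26. Endothelial markers moved with genotype in the old fasted males. Summed over 14 of them, all with reads in both groups, the level was 423 to 567 CPM in Het, against 180 to 254 CPM in WT. The hepatocyte sum was 120500 to 134700 CPM in Het, against 145300 to 187400 CPM in WT. The part of these markers in the mfsd2a levels was not tested. In these comparisons 0% of genes were called at the young age, by edgeR, with 858 genes at an unadjusted p under 0.05 and 5 called by DESeq2, and 0.758% at the old age.

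In females, which were sampled only when fasted, both estimates were below 0. Young Het livers had 180, 182, 336 and 263 CPM, against 375, 285 and 522 CPM in young WT livers. The upper Het fish overlapped the lower WT fish, and the log2 difference was -0.72 ± 0.52 (SE, edgeR adjusted p = 0.818). It was -0.90 without fish 29 and -0.75 without fish 37. Old Het livers had 52.6, 254, 91.2 and 518 CPM, against 417, 404 and 244 CPM in old WT livers. The old Het females spanned nearly the whole range of the fasted livers, with an SD of 212 CPM around a mean of 229 CPM (n = 4). Their log2 difference was -0.63 ± 0.52 (SE, edgeR adjusted p = 0.585), and it was -0.30 without fish 21, whose liver had the lowest level of the group. In these comparisons 0% of genes were called at the young age (edgeR, with 1374 at an unadjusted p under 0.05 and 18 called by DESeq2), and 2.03% at the old age.

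Averaged over the 4 fasted age and sex groups, a contrast chosen after the data had been seen, the genotype difference was -0.25 ± 0.26 on the log2 scale (SE, edgeR adjusted p = 0.855), where 0.132% of genes were called. It was -0.17 without fish 21, -0.29 without fish 29 and -0.26 without fish 37. The same average for aprt was -0.86 (edgeR adjusted p = 0.00010).

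Female livers held more mfsd2a than male livers at both ages. Over both genotypes, the 14 fasted female livers had 52.6 to 522 CPM with a median of 274 CPM, against 19.6 to 180 CPM with a median of 98.0 CPM in the 13 fasted male livers. The female median lay above every male liver, and only 2 females, fish 21 and fish 23 of the old Het group, lay within the lower part of the male range. The log2 difference was 1.88 ± 0.40 (SE, edgeR adjusted p = 0.00056) in old fish and 1.14 ± 0.37 (SE, edgeR adjusted p = 0.0225) in young fish. In these comparisons 14.3% of genes were called higher in females at the old age and 13.9% at the young age. The old difference was 2.04 without fish 21, and the young one was 1.23 without fish 29 and 1.11 without fish 37, all called. Hepatocyte markers, all 12 with reads, ran the other way. Their sum was 53700 to 102400 CPM in old females, against 120500 to 187400 CPM in old males, and 54080 to 100500 CPM in young females, against 95760 to 188300 CPM in young males. Their part in the sex difference was not tested. In young fish the call was lost without WT male 33 (edgeR adjusted p = 0.0538), without WT female 30 (edgeR adjusted p = 0.0626) or without Het female 36 (edgeR adjusted p = 0.0540).

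The size of the sex difference depended on how libraries were scaled. The 10 most abundant genes took 29.5% to 58.9% of the counts in fasted female livers, against 17.4% to 27.1% in fasted male livers, and TMM scaling multiplied the plain CPM by 1.13 to 1.84 in females and by 0.665 to 0.952 in males. With plain total counts as library sizes, a setting chosen after the data had been seen, the old difference was 0.94 (edgeR adjusted p = 0.0113). The young difference was then 0.33 and was no longer called (edgeR adjusted p = 0.356). In plain CPM, the means of young WT fish were 255 CPM in females and 162 CPM in males, and those of young Het fish 176 CPM in females and 175 CPM in males. Those of old WT fish were 241 CPM in females and 80.0 CPM in males, and those of old Het fish 131 CPM in females and 107 CPM in males. Sex differences of other genes given below used TMM scaling, and the part of scaling in them was not tested.

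No age difference was called among fasted fish. Fasted males had a log2 difference of -0.85 ± 0.39 (SE, old over young, unadjusted p = 0.0353, edgeR adjusted p = 0.139), where 5.66% of genes were called lower and 8.9% higher, and it was -0.63 without fish 18. Fasted females had one of -0.11 ± 0.37 (SE, edgeR adjusted p = 0.894), where 3.04% of genes were called lower. It was 0.06 without fish 21, -0.20 without fish 29 and -0.07 without fish 37. The female minus male difference of these age effects, added after the data had been seen, was 0.74 ± 0.53 (SE, edgeR adjusted p = 0.577), where 0.954% of genes were called. It was 0.91 without fish 21, 0.65 without fish 29 and 0.78 without fish 37.

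Ordered by group mean, the liver levels ran from young WT fasted females (394 ± 120 CPM, SD, n = 3) and old WT fasted females (355 ± 96.5 CPM, n = 3) over the Het females (240 ± 74.3 CPM young and 229 ± 212 CPM old, n = 4 each). The young Het fed males (177 ± 41.8 CPM) followed, above both groups of young fasted males. Then came the old fasted males (84.7 ± 18.7 CPM Het, 71.0 ± 44.5 CPM WT, n = 3 each), the old Het fed males and, last, the fed WT males of both ages (13.9 ± 8.40 CPM old, 11.1 ± 3.42 CPM young, n = 3 each). Neighbours in this order overlapped with 2 exceptions. The young WT fasted males, at 123 CPM or more, were all above the old Het fasted males, and the old Het fed males were all above the old WT fed males. This order is that of TMM-scaled CPM. In plain CPM the mean of young Het fed males, 198 CPM, lay above those of young (176 CPM) and old Het females (131 CPM). The old Het female mean then also lay below those of young fasted males (175 CPM Het, 162 CPM WT).

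**Figure D2:**
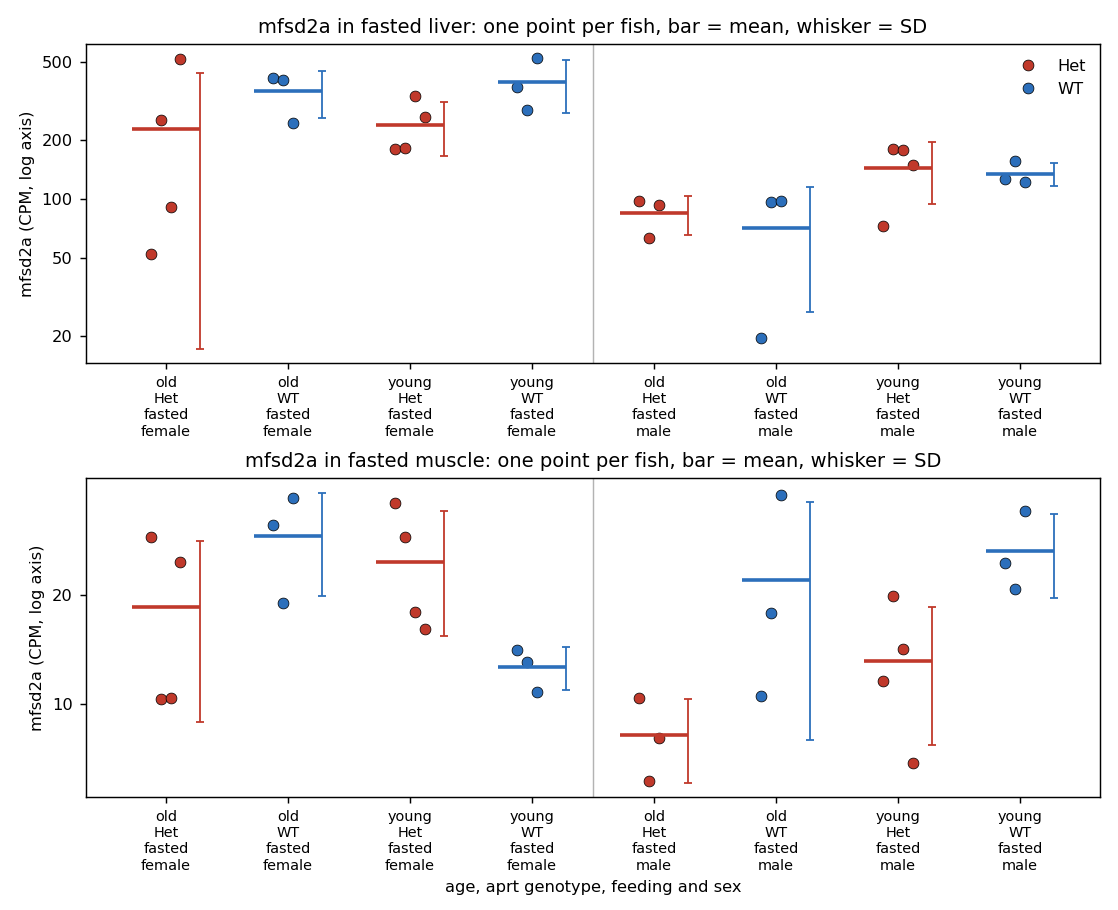
CPM of mfsd2a (log axis) in each fasted liver (top) and each fasted muscle (bottom) by sex, age and aprt genotype, with group means (bars) and SD (whiskers). In liver the females lie mostly above the males, with medians of 274 and 98.0 CPM, and in muscle the young females and young males show opposite orders of the genotypes.

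Muscle held less mfsd2a than liver in each of the 27 fish. CPM were scaled within each tissue on its own, so ratios of liver to muscle CPM depend on that scaling. The ratio within a fish had a median of 9.39 and ran from 1.83 in fish 21 to 48.5 in young WT female 30. In plain CPM, fish 21 had 42.4 CPM in liver and 34.3 CPM in muscle, and fish 30 had 311 CPM in liver and 10.7 CPM in muscle. In a fit of both tissues, scaled together, the log2 difference was 2.76 ± 0.20 (SE, edgeR adjusted p = 4.94e-17). In this comparison 44% of 18485 genes were called higher in liver. That fit did not pair the liver and muscle of a fish, and the fit with the fish as a block is given in the closing section. Liver and muscle libraries were made with different kits and run on different sequencers, so tissue and library preparation cannot be told apart. Within groups, the deviations of liver and muscle from their group means had a Pearson r of 0.16 and a Spearman rho of 0.13 over the 27 fish, a description only.

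**Figure D3:**
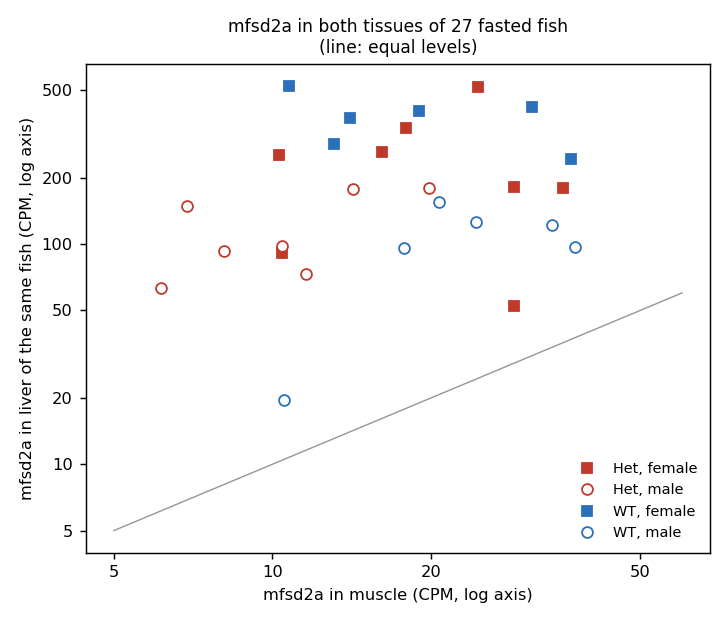
CPM of mfsd2a in liver (vertical log axis) against muscle (horizontal log axis) of the same 27 fasted fish, with the line of equal CPM. Each tissue was scaled on its own. All points lie above the line, the closest being the old Het female with a ratio of 1.83.

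In muscle of males, the genotype estimates were below 0 at both ages. Old Het muscles had 10.4, 6.15 and 8.08 CPM, against 10.5, 17.8 and 37.5 CPM in old WT muscles. The groups were separated only by the small step between their closest fish. The closest Het muscle, that of fish 25, had a hepatocyte marker sum of 3258 CPM, in a group with a median of 18.5 CPM. The part of liver RNA in its mfsd2a level was not tested. The log2 difference was -1.42 ± 0.45 (SE, unadjusted p = 0.00469, edgeR adjusted p = 0.278). Young Het muscles had 11.6, 19.8, 14.2 and 6.87 CPM, against 24.4, 20.7 and 34.0 CPM in young WT muscles, a log2 difference of -1.0 ± 0.41 (SE, edgeR adjusted p = 0.860). Those groups did not overlap either.

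In females, the young Het muscles had 35.7, 28.8, 18.0 and 16.1 CPM, against 14.1, 13.1 and 10.8 CPM in young WT muscles, so Het was above WT without overlap. The log2 difference was 0.96 ± 0.42 (SE, edgeR adjusted p = 0.717), and it was 1.12 without fish 37 and 0.99 without fish 29. Old Het females had 28.7, 10.3, 10.4 and 24.6 CPM, against 31.1, 19.0 and 36.9 CPM in old WT females, a log2 difference of -0.65 ± 0.41 (SE, edgeR adjusted p = 0.751), and -0.96 without fish 21. None of the 4 genotype differences in muscle was called. There, edgeR called 0% of the 16380 genes in each comparison, with 945 to 1472 at an unadjusted p under 0.05, and DESeq2 called 2 to 46.

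The remaining muscle comparisons were not called. The sex difference (female over male) was 0.79 ± 0.31 in old fish (SE, edgeR adjusted p = 0.135), where 0.94% of genes were called higher, and -0.08 ± 0.29 in young fish (SE, edgeR adjusted p = 0.976), where 0.11% were called. Without old WT male 20, the old difference was 1.11 and was called (edgeR adjusted p = 0.0267), and without fish 21 it was 0.65. The young difference was -0.09 without fish 29 and 0.00073 without fish 37. The age difference was -0.47 ± 0.31 in males (SE, edgeR adjusted p = 0.322), where 10.1% of genes were called, and 0.39 ± 0.29 in females (SE, edgeR adjusted p = 0.668), where 0.311% were. The female value was 0.25 without fish 21, 0.41 without fish 29 and 0.31 without fish 37.

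**Figure D4:**
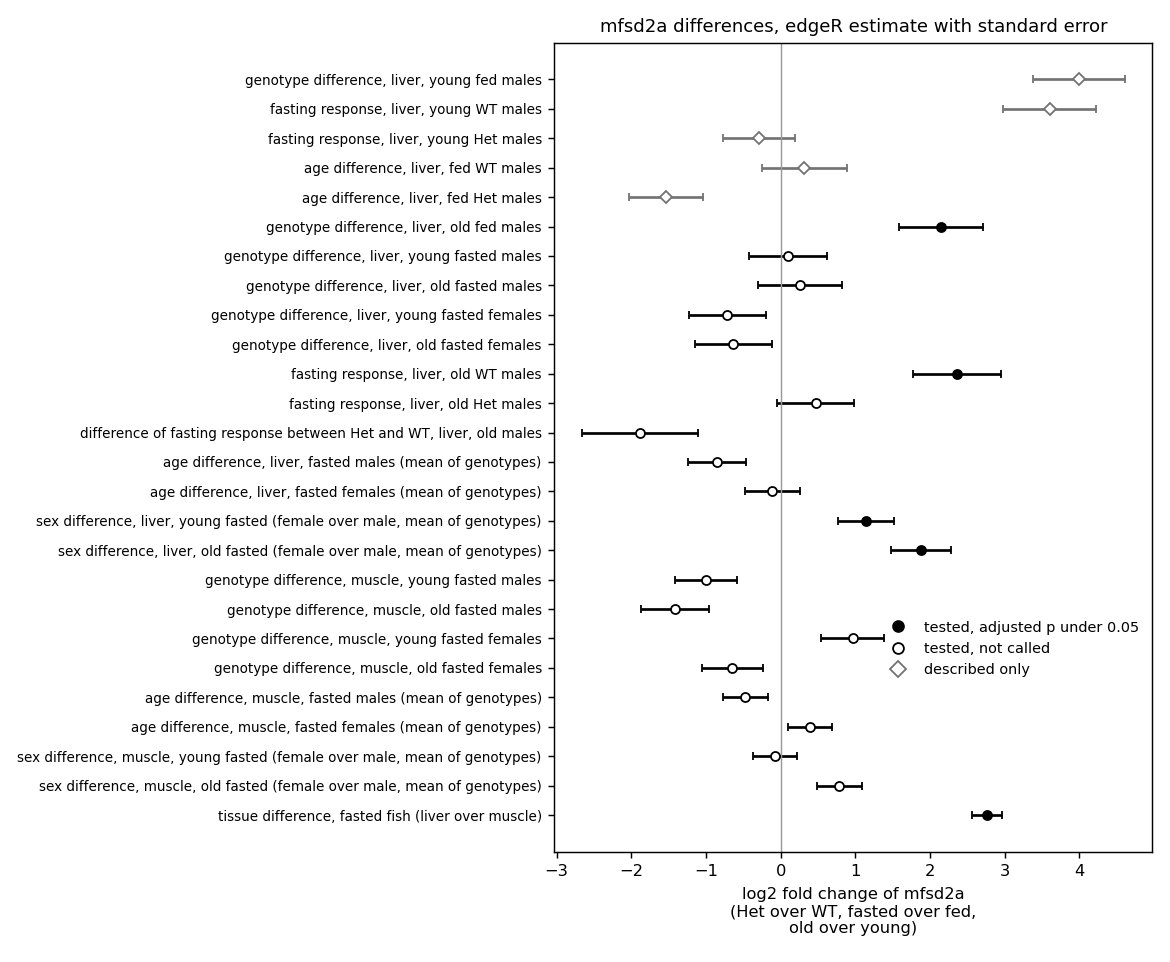
Log2 fold change of mfsd2a with its standard error (horizontal axis) in each planned comparison (rows), as filled circles where the edgeR adjusted p is under 0.05, open circles where it is not, and grey diamonds for comparisons that include the young fed males and were not tested. Among the tested rows the filled ones are the genotype difference of old fed males (2.14), the fasting response of old WT males (2.35), both sex differences in liver (1.88 old and 1.14 young) and the tissue difference (2.76).

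Close relatives of mfsd2a were also examined. The list of lysophospholipid transporters held mfsd2aa, 1 of the copies that RefSeq names, mfsd2b, whose mammalian protein exports sphingosine 1-phosphate from blood cells, spns1, a lysophospholipid exporter of lysosomes in mammals, spns2, a sphingosine 1-phosphate exporter, and its relative spns3. mfsd2b had 0 to 3 reads per liver, was at 0 in 23 of 41 livers and did not pass the filter on low counts. mfsd2aa had 0 to 51 reads per liver with a median of 2, and spns3 had 0 to 264 with a median of 5. In old fed males, of the 4 relatives that passed the filter, 0 were called (edgeR, Het over WT, with 1 at an unadjusted p under 0.05 and 0 called by DESeq2), with a median log2 difference of -0.51 against 0.00 over all genes. Of all genes, 7.33% were called there in either direction, so 0 of 4 is near the share over all genes. spns1 had a log2 difference of 0.13 ± 0.21 and spns2 one of 0.37 ± 0.15 (SE).

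Elsewhere some relatives changed. spns2 was higher in fasted than in fed old WT males (log2 0.49 ± 0.16, SE, edgeR adjusted p = 0.0191). mfsd2aa was higher in fasted than in fed old Het males (log2 3.58 ± 1.06, SE, edgeR adjusted p = 0.00981). It had 0.674 to 1.34 CPM in the fasted livers and 0 to 0.158 CPM, from 0 to 5 reads, in the fed livers. spns3 was higher in old than in young fasted males (log2 2.80 ± 0.91, SE, edgeR adjusted p = 0.0342), and its highest liver level, 6.18 CPM, was that of fish 18, the liver with the most leukocyte marker RNA. The part of leukocytes in the spns3 difference was not tested. mfsd2aa was also higher in old than in young fasted males (log2 2.60 ± 0.76, SE, edgeR adjusted p = 0.0188). In old fasted fish, where mfsd2a was higher in females, mfsd2aa (log2 -2.02 ± 0.78, SE, edgeR adjusted p = 0.0443) and spns3 (-2.54 ± 0.93, edgeR adjusted p = 0.0353) were lower in females than in males. There 32.6% of all genes were called in either direction. spns3 had 6.18 CPM in fish 18 and 3.47 CPM in fish 26, the males with the highest leukocyte sums, and at most 1.07 CPM in the other males. mfsd2aa had 0.674 to 1.34 CPM in Het males, and 1.19 CPM in WT fish 18 against 0.0763 and 0.156 CPM in the other WT males. The part of leukocytes was not tested. Between tissues, where 42% of all genes were lower in liver, mfsd2b (log2 -4.27), mfsd2aa (-2.62), spns3 (-1.28) and spns2 (-1.16) were lower in liver than in muscle, and spns1 (1.30), like mfsd2a, was higher in liver.

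Among phospholipid genes, lpl was called higher in Het livers of old fed males. lpl, lipoprotein lipase, which frees fatty acids from circulating lipoproteins, had 531, 756, 247 and 918 CPM in old Het fed livers, against 227, 94.9 and 211 CPM in old WT fed livers. Every Het liver was above every WT liver, and the log2 difference was 1.79 ± 0.46 (SE, edgeR adjusted p = 0.0154). Of the 25 tested genes of phospholipid remodelling and lysophospholipid metabolism, 2 were called in old fed males, both higher in Het: lpl and pla2g12b, a secreted phospholipase A2 relative (0.74 ± 0.23). The list's median was 0.09, against 0.00 over all genes, and 7.33% of all genes were called in either direction. In the young fed males, by description, lpl (1.66 ± 0.46, SE) and gpcpd1 (1.41 ± 0.27) were higher in Het and lpgat1, an acyltransferase that acts on lysophosphatidylglycerol, was lower (-1.14 ± 0.28).

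Of 17 phosphatidylcholine synthesis genes, 2 were called in old fed males, where 7.33% of all genes were called, and both were lower in Het. They were etnk2, an ethanolamine kinase (-1.66 ± 0.45, SE, edgeR adjusted p = 0.0226), and pcyt1a, which makes CDP-choline and sets the pace of phosphatidylcholine synthesis (-0.62 ± 0.15, edgeR adjusted p = 0.0110). Of 8 genes of polyunsaturated fatty acid synthesis and handling, 0 were called (edgeR, with 2 at an unadjusted p under 0.05 and 1 called by DESeq2), with a median log2 difference of -0.46. Of 13 fatty acid and triglyceride synthesis genes, 3 were called against the same 7.33% of all genes. acacb, which makes malonyl-CoA at mitochondria (1.09 ± 0.28, edgeR adjusted p = 0.0172), and dgat1a, which completes triglycerides (0.80 ± 0.23, edgeR adjusted p = 0.0304), were higher. gpam, the first acyltransferase of glycerolipid synthesis, was lower (-0.81 ± 0.20, edgeR adjusted p = 0.0124).

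Genes of the fasting programme were examined because mfsd2a is one of its members in mouse. Of 25 tested fasting and PPAR alpha targets, creb3l3a, a liver transcription factor of fasting, was the single gene called in old fed males (0.97 ± 0.18, SE, edgeR adjusted p = 0.00204). In that comparison 7.33% of all genes were called in either direction. Under fasting of old WT males, 4 of the 25 were called higher, where 13.3% of all genes were, and 8 lower, where 15.6% were, with a median of -0.20 against 0.08 over all genes. Among those higher were pck1, an enzyme of glucose synthesis (5.54 ± 1.75, edgeR adjusted p = 0.0165), foxo1, a transcription factor held back by insulin (2.91 ± 0.69, edgeR adjusted p = 0.00200), and ppargc1a, a coactivator of oxidative genes (2.02 ± 0.63, edgeR adjusted p = 0.0152). In old Het males 4 were higher, where 15.4% of all genes were, and 12 lower, where 16.3% were. The highest was pck1 (6.48 ± 1.61, edgeR adjusted p = 0.00250).

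In old fasted fish, the 25 fasting and PPAR alpha targets had a median of 0.81 (female over male), against -0.07 over all genes. Of all genes, 32.6% were called in either direction. Among the 25 targets, 2 were called lower in females and 14 higher. They included fabp1, the fatty acid binding protein of liver (7.10 ± 0.65, SE, edgeR adjusted p = 5.14e-10), angptl4, an inhibitor of lipoprotein lipase (4.43 ± 0.54, edgeR adjusted p = 1.82e-07), and acaa2, an enzyme of mitochondrial beta-oxidation (2.61 ± 0.20, edgeR adjusted p = 1.06e-11). acsl1, which activates long-chain fatty acids, was higher in females (log2 4.71 ± 0.41, edgeR adjusted p = 1.25e-10), and lpcat4, a lysophospholipid acyltransferase, was lower in females (log2 -3.08 ± 0.34, edgeR adjusted p = 1.92e-08). In young fish 4 targets were higher and 4 lower, where 26.4% of all genes were called in either direction, with fabp1 again the largest (6.51 ± 0.61, edgeR adjusted p = 9.54e-10).

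The sterol genes, targets of the transcription factor SREBP-2, are set beside mfsd2a because their median also differed in young fed males. There the 23 had a median log2 difference of 2.24 (Het over WT), against 0.02 over all genes, a description only, since this comparison is the one that chose the gene. In old fed males, where mfsd2a again was higher in Het, 0 of the 23 were called (edgeR, with 3 at an unadjusted p under 0.05 and 0 called by DESeq2) and the median was -0.20. The share called over all genes was 7.33% in either direction. Fasting of old males gave lower calls for 18 of 23 in Het (median -3.15, where 16.3% of all genes were lower) and 19 of 23 in WT (median -2.09, where 15.6% were lower), while mfsd2a was higher in fasted WT livers.

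Liver by liver, the sterol genes had mean log2 levels of 4.16 to 7.01 in young Het fed, 4.46 to 7.11 in old Het fed, 5.79 to 6.78 in old WT fed and 3.96 to 4.11 in young WT fed livers. The old WT fed livers had high sterol genes with mfsd2a of 22.2 CPM or less, and the young WT fed livers were low in both. Fish 53 had the lowest sterol level of the young Het fed group with its highest mfsd2a, 219 CPM. Fish 14 had both the highest sterol level and the highest mfsd2a, 87.2 CPM, of the old Het fed group. The part of sterol regulation in the mfsd2a levels was not tested. The Spearman rho between mfsd2a and the sterol mean was -0.41 over 41 livers, 0.42 over the 14 fed and -0.08 over the 27 fasted livers. The 41 and the 14 include the young fed males by which mfsd2a was chosen. These values describe libraries that share groups and sequencing.

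**Figure D5:**
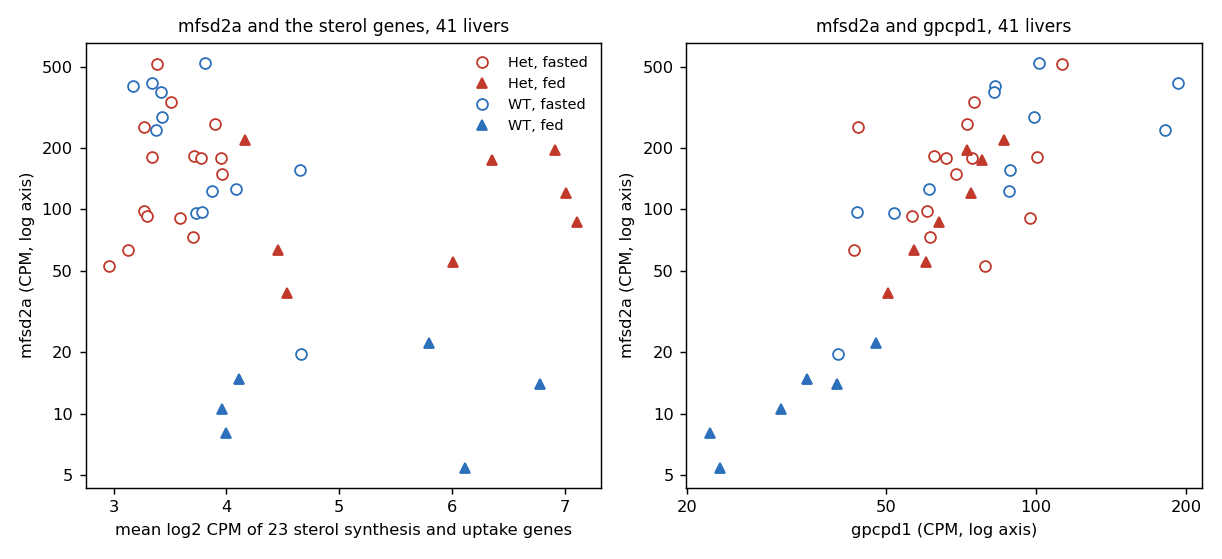
CPM of mfsd2a (vertical log axis) in 41 livers against the mean log2 CPM of 23 sterol genes (left) and the CPM of gpcpd1 on a log axis (right), by genotype (colour) and feeding (filled triangles fed, open circles fasted). The fed WT livers lie low at sterol levels from 3.96 to 6.78. In the right panel the 14 fed livers, which include the young ones that chose mfsd2a, have a rho of 0.97 with gpcpd1.

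Among the phospholipid genes, gpcpd1 is a glycerophosphocholine phosphodiesterase that breaks down the product left when a lysophosphatidylcholine loses its last fatty acid. It was singled out after its values were seen. In young fed males it had 74.1, 86.4, 77.7 and 72.7 CPM in Het livers, against 22.2, 30.8 and 34.8 CPM in WT livers. In old fed males it had 60.3, 56.9, 50.5 and 63.9 CPM in Het livers, against 39.8, 23.3 and 47.6 CPM in WT livers. Both sets were apart. In the old males the log2 difference was 0.65 ± 0.26 (SE) and was not called (edgeR adjusted p = 0.119). Its Spearman rho with mfsd2a was 0.97 over the 14 fed livers, which include the 7 young ones that chose mfsd2a, and 0.78 over all 41. Without the young fed males it was 0.73 over 34 livers, and over the 27 fasted livers it was 0.62. The 99th percentile over all genes was 0.859 for the 14 fed livers and 0.697 for all 41. For the 34 and the 27 livers it was 0.752 and 0.746, and gpcpd1 lay below it in both. In old fasted fish gpcpd1 was also higher in females under TMM scaling (1.20 ± 0.19, edgeR adjusted p = 1.40e-05). Its unscaled reads were 683 to 2017 in old Het females and 1453 to 1899 in old Het males. They were 1519 to 3611 in old WT females and 1121 to 1712 in old WT males. The part of scaling in this sex difference was not tested. Unlike mfsd2a, gpcpd1 was lower in liver than in muscle (-0.96 ± 0.11, edgeR adjusted p = 1.44e-10). For fasting of old WT males, where mfsd2a was called, gpcpd1 had a log2 difference of 0.29 ± 0.27 (SE). It was not called there (edgeR adjusted p = 0.466). For fasting of young WT males, by description, the gpcpd1 difference was 1.44 ± 0.28 (SE).

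Across all 41 livers, among genes with a symbol, the 10 whose log2 CPM ranked most like that of mfsd2a were chuk, a kinase of the NF-kappa B pathway, ddias, plekhg7, isca1, an assembly factor of iron-sulfur clusters, ilrun, klhl22, fbxo34, arhgef12, myo1c, a myosin motor, and ufm1, a ubiquitin-like modifier. Their Spearman rho ran from 0.85 for chuk to 0.79 for ufm1, against a median of -0.05 and a 99th percentile of 0.70 over all genes. The 10 were picked by this rho, so their place above that percentile was set in advance. The smaller sets of livers below are parts of the 41 and are not independent of that choice. Without the young fed males, over 34 livers, the 10 had rho of 0.78 to 0.89, against a 99th percentile of 0.752 over all genes. Over the 27 fasted livers they had 0.67 to 0.83, against a 99th percentile of 0.746. Over the 14 fed livers myo1c had a rho of 0.34 and the other 9 had 0.65 to 0.85, against a 99th percentile of 0.859. The 5 genes with a symbol at the opposite end were bri3bp (-0.79), zgc:158270 (-0.74), si:dkeyp-38g8.5 (-0.73), actn4, an actin crosslinker (-0.73), and si:ch211-216l23.2 (-0.73). The livers share their groups, depth and sequencing, so these values describe the libraries. Under Pearson r on log2 CPM, 5 of the 10 highest were again among the 10 highest.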

How the data were processed

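Polyadenylated RNA was sequenced from 41 livers and 27 muscles of 41 fish, grouped by the labels. The files hold each library's raw read count per gene, as deposited by the authors. FastQC 0.11.8, Trim Galore 0.6.4, cutadapt 3.4 and STAR 2.7.6a are named in the submitters' processing notes. The counting tool, strand setting and build are not given in the sources used here. Per the labels' protocols, liver and muscle used different KAPA kits and NextSeq instruments. No sequences or coordinates are given. RefSeq (NfurGRZ-RIMD1) supplied names for 5241 of 14280 LOC identifiers.

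Counts were tested with edgeR 4.0.16 in R 4.3.3 (quasi-likelihood, TMM, filterByExpr with minimum count 10 and minimum total 15), 1 mean per group over all libraries of a tissue. P-values were Benjamini-Hochberg adjusted over 17406 genes in liver, 16380 in muscle and 18485 in both, and a gene was called under 0.05. Log2 CPM used a prior count of 2. Steps were tested on simulated data. The SE is the log2 fold change divided by the root of F. Each library was taken as 1 fish, and all 84 pairs within groups differed by more than sampling noise (chi-square per degree of freedom at least 15.05). The read count of a gene is 1 limit on the precision of its level in a single library. P-values weigh differences of group means against a spread between fish that edgeR estimates over all groups of the fit.

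The gene, the 13 lists and the tests were chosen with earlier results of these data known. Summed levels of the endothelial, erythroid and exocrine pancreas markers over all livers are given in the closing section. Genes named were mfsd2a, its relatives, up to 3 called genes per list and comparison with the largest log2 fold change at a mean log2 CPM of at least 1, the 10 most and 5 least alike by Spearman rho, and aprt. Not all are printed. Alternatives were DESeq2 1.42.0, RLE size factors, plain total counts, no filter, only the groups compared, and each library left out. Both tissues came from the same fish, per the series' design text, so fish pairs them: deviations of same-fish libraries had a correlation of -0.01 to 0.56 (median 0.13, over 0.1 in 23 of 27 fish), and the fish was a block in an alternative.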

Additional observations from a re-analysis of the deposited data

Results flagged for a closer look

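In muscle of young fasted fish, every Het female had more mfsd2a than every WT female and every Het male had less than every WT male. The difference of the genotype effects, females minus males, was 1.96 on the log2 scale (SE 0.59, unadjusted p = 0.00291). It was not called (edgeR adjusted p = 0.805, with 0 genes called by edgeR, 930 at an unadjusted p under 0.05, and 0 called by DESeq2), and leaving out each library gave 1.73 to 2.24. The same contrast was 0.77 in muscle of old fish, -0.89 in liver of old fish and -0.82 in liver of young fish, none of them called. Without fish 21 the values of old fish were 0.47 in muscle and -0.56 in liver. In liver of young fish the value was -1.0 without fish 29 and -0.83 without fish 37.

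Single fish stood far from the rest of their group of 4 in 9 of 72 tests, over mfsd2a and 8 other genes, where chance flags about 1 in 20 groups. None of these concerned mfsd2a. All groups of 4 were Het, and the groups of 3, which include every WT group, were not tested. Fish 18, with 19.6 CPM of mfsd2a in liver against 96.1 and 97.3 CPM in its group, could therefore not be flagged. lpl was highest at 707 CPM in young Het fasted male 41 (liver) and lowest at 901 CPM in young Het fed male 52. aprt was highest at 8.35 CPM in the muscle of young Het fasted male 39. mfsd2aa was highest at 1.0 CPM in young Het fasted female 37 (liver). spns3 was highest at 2.08 CPM in old Het fed male 13 and at 0.505 CPM in young Het fasted male 40 (livers). mfsd2b, at 0 to 3 reads per liver, was highest at 0.193 CPM in old Het fasted female 22 and at 0.0534 CPM in young Het fasted female 36, and lowest at 0 in young Het fasted male 41.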

How the results depend on the processing

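Values are log2 differences of mfsd2a. Under DESeq2, RLE size factors, no filter on low counts, plain total counts or a fit of only the groups compared, every planned comparison kept its direction, and 2 calls were lost: the fasting response of old WT males fitted on its own groups (2.33, adjusted p = 0.10) and the young sex difference in liver with plain total counts (0.33). With the fish as a replicate block, the paired tissue difference was 2.71 (edgeR adjusted p = 2.64e-13). Leaving out each library in turn gave 1.76 to 2.66 for the genotype difference of old fed males, 1.01 to 1.23 for the young sex difference in liver, and -2.40 to -1.50 for the Het minus WT difference of fasting responses. Uncalled values changed sign at -0.018 to 0.32 for the genotype difference of young fasted males (-0.018 without fish 39, -0.013 without fish 40), -0.19 to 0.57 for that of old fasted males (-0.19 without fish 18), and -0.49 to 0.055 for the age difference of fasted females in liver (0.055, 0.036 and 0.029 without fish 21, 23 and 30). They also did at -0.20 to 0.057 for the young sex difference in muscle (0.036, 0.057 and 0.00073 without fish 33, 39 and 37). The old sex difference in muscle was 0.62 to 1.11. The cause was not tested. In plain CPM, the means of 4 of 12 liver groups moved by more than 1 SD, to 107 CPM in old Het fasted males, 241 CPM in old WT fasted females, 255 CPM in young WT fasted females and 162 CPM in young WT fasted males. The gene had at least 213 reads per liver and 129 per muscle. With 3 or 4 fish per group, the spread between fish sets the precision.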

Other observations

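Other cell types were present at levels that varied between livers. Over the 41 livers, summed endothelial markers were 123 to 567 CPM, erythroid markers 65.1 to 367 CPM and exocrine pancreas markers 64.7 to 3426 CPM. The pancreas sum was highest in young WT fasted female 30, which also had the highest mfsd2a, 522 CPM. It was 1781 to 1896 CPM in young WT fed livers, whose mfsd2a was 8.04 to 14.8 CPM. The Spearman rho of mfsd2a with the mean log2 level of pancreas markers was 0.06 over all 41, -0.13 over fed and 0.07 over fasted livers. With endothelial markers it was -0.11, 0.06 and -0.49. Within the 14 fed livers, the Spearman rho of mfsd2a was 0.72 with the mean log2 level of 12 hepatocyte markers and -0.63 with that of 10 skeletal muscle markers, and over the 27 fasted livers it was -0.44 and 0.41. With the 25 fasting and PPAR alpha targets it was 0.43 over all 41 livers, 0.33 over the fed and 0.26 over the fasted ones. With 25 phospholipid remodelling genes it was 0.82 over the fed and -0.37 over the fasted livers. The fed livers, and so all 41, include the young fed males by which the gene was chosen. These are descriptions of libraries that share groups, and no cause was tested.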
